A study of Homo sapiens with 6 samples.

Results

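The genes described here are the cAMP generation and signalling machinery of MDA-MB-231, a line of human breast cancer cells. They are 38 gene symbols of the 26255 in the FPKM table, taken by name: 10 adenylyl cyclases, 6 G protein alpha subunits, 6 subunits of protein kinase A (PKA), 2 PKA inhibitors, 6 PKA anchors (AKAPs), 2 EPAC proteins, and CREB1, ATF1, CREBBP and the 3 CRTC coactivators. All 38 were found in the table. RNA was sequenced from cells with a control hairpin (shNT, 3 libraries) and from cells with a hairpin against GPR81, the lactate receptor encoded by HCAR1 (shGPR81, 3 libraries). Both groups carried a lentiviral hairpin and had been selected with puromycin. The sources do not name which GPR81 hairpin the sequenced cells carried or say whether the 3 libraries of a group came from separate cultures, so p-values measure the spread between these libraries, which may be technical.

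Cyclic AMP is made from ATP by adenylyl cyclases, which Gs (GNAS) stimulates and the Gi subunits (GNAI1, GNAI2 and GNAI3) inhibit. GPR81 is a Gi-coupled receptor. Cyclic AMP binds the regulatory subunits of PKA and releases the catalytic subunits, which PKI proteins can block, and AKAPs hold the kinase at particular places in the cell. EPAC proteins are a separate set of cAMP sensors, and CREB1 and ATF1, with the coactivators CREBBP and CRTC1 to CRTC3, carry the signal to genes. The comparison asks whether the RNA of this machinery differed once the receptor was targeted.

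HCAR1, the targeted gene, was at 0.968, 1.02 and 1.36 FPKM in shNT and at 0.978, 0.891 and 0.396 FPKM in the libraries labelled shGPR81. The groups overlapped and the log2 fold change of -0.57 (SE 0.31) did not pass (adjusted p = 0.38, limma with Benjamini-Hochberg adjustment), so the second group is named by its label below. HCAR1 rested on 129 reads in shNT and 92 in the other group, or 0.677 of the shNT level once depth is accounted for (exact 95% limits 0.513 and 0.892 by the Clopper-Pearson method). These limits cover counting error only, and shGPR81 replicate 3, with 16 reads, was the lowest library beside 36 to 52 reads in the others. Steps in the FPKM values give relative depths of 1 to 1.07, which the ratios of reads use. The scaling option is not known, so this factor may not be read depth alone. With the longest annotated transcript taken as gene length, the steps give a rough 12222096 to 13061456 reads per library. Among the 7 markers listed for the line, VIM was at 3211 to 4443 FPKM, and 0 were called. With groups apart, VIM and MSN were higher in the libraries labelled shGPR81 (adjusted p = 0.267 and 0.0378, limma). CD44 and FN1 were lower, also with groups apart (adjusted p = 0.0566 and 0.0148, limma). EGFR, CAV1 and KRT18 overlapped, and KRT18, a keratin placed in this list, averaged 207 FPKM. Of 7 luminal or epithelial markers 3, ESR1, PGR and CDH1, were listed at 0 in all. The others were expressed, with means over the 6 libraries of 11.6 FPKM for ERBB2, 5.88 for EPCAM, 1.65 for FOXA1 and 1.29 for GATA3. Of the 5 leukocyte markers 3 were listed at 0, as were CDH5 of 3 endothelial and 3 of 4 stromal markers. CD14 was at 2.24 to 4.29 FPKM in shNT and 1.14 to 1.74 FPKM in the libraries labelled shGPR81 (adjusted p = 0.0562, limma), and made up nearly all of the summed leukocyte markers, 2.24 to 4.29 and 1.14 to 1.77 FPKM. Its part in the results below was not tested.

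Of the 38 genes, 4 were listed at 0 in all libraries and 2 were below the filter of 0.1 FPKM in at least 3 libraries, which left 32 tested genes. PKIA, which encodes an inhibitor of PKA, was the 1 member called, which takes a change of more than 1.5-fold with an adjusted p below 0.05, and it was higher in the libraries labelled shGPR81. Over all 14349 tested genes 0.955% were called higher and 1.59% lower (limma). PKIA was also the 1 member with an adjusted p below 0.05 whatever its fold, as were 5.13% of all tested genes. No member was called lower, with 4 of them lower and 3 higher at an unadjusted p under 0.05, where 19.5% of all tested genes lay in either direction. The groups did not overlap in 10 of the 32 members (31.3%), 7 lower and 3 higher, beside 25.6% of all tested genes (12.7% lower and 12.9% higher). The tested members had a median log2 fold change of -0.04, and all tested genes one of 0.01. The shares taken in either direction were near the background of the whole table. With groups apart, 7 members were lower and 3 higher, where all tested genes were nearly even, and this balance was not tested.

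**Figure D1:**
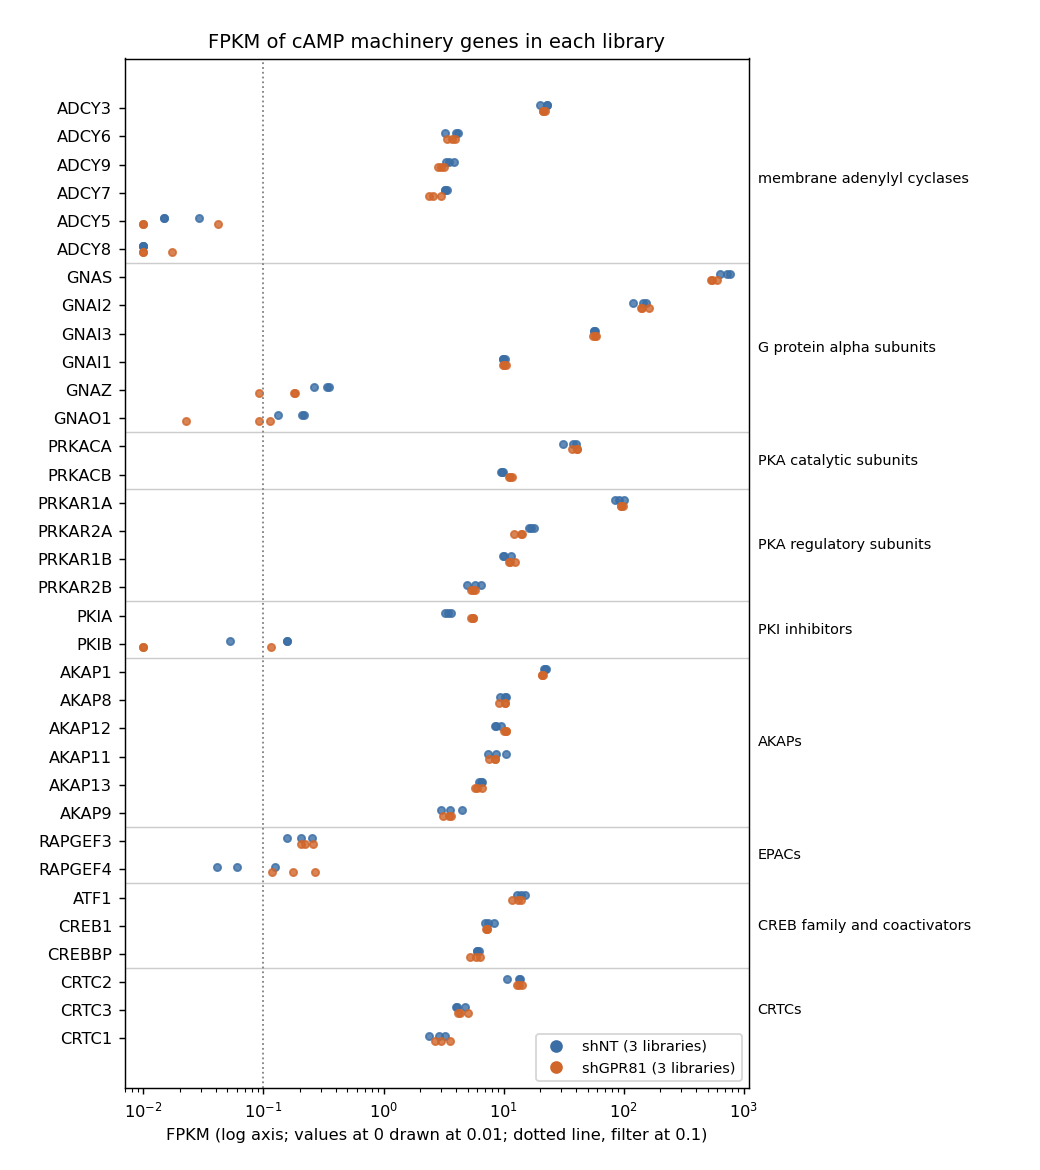
FPKM on a log axis (x) of the 34 members with a value above 0, by role (y), with 1 point per library, blue for shNT and orange for shGPR81. GNAS sits highest, at 534 to 768 FPKM, while GNAZ, GNAO1, PKIB and both EPAC genes lie around the dotted line at 0.1 FPKM, and the blue and orange points of PKIA stand apart. Values at 0 are drawn at the left edge, at 0.01.

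For most members the 95% interval stayed inside 1.5-fold, though it rests on a spread between libraries that may be technical. Of the 27 tested members with a mean of at least 1 FPKM, 26 had a 95% interval inside 1.5-fold in both directions (0.58 on the log2 scale). PKIA was the other one. Some of the 26 reached close to 1.5-fold. The intervals of ADCY7 (-0.57 to -0.04), GNAS (-0.54 to -0.15) and PRKAR2A (-0.51 to -0.15) were wholly negative. Those of PRKACB (0.09 to 0.37) and AKAP12 (0.05 to 0.38) were wholly positive. The 5 tested members under 1 FPKM (GNAO1, GNAZ, PKIB, RAPGEF3 and RAPGEF4) had intervals that reached past 1.5-fold, so a change of that size in them was neither shown nor excluded.

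**Figure D2:**
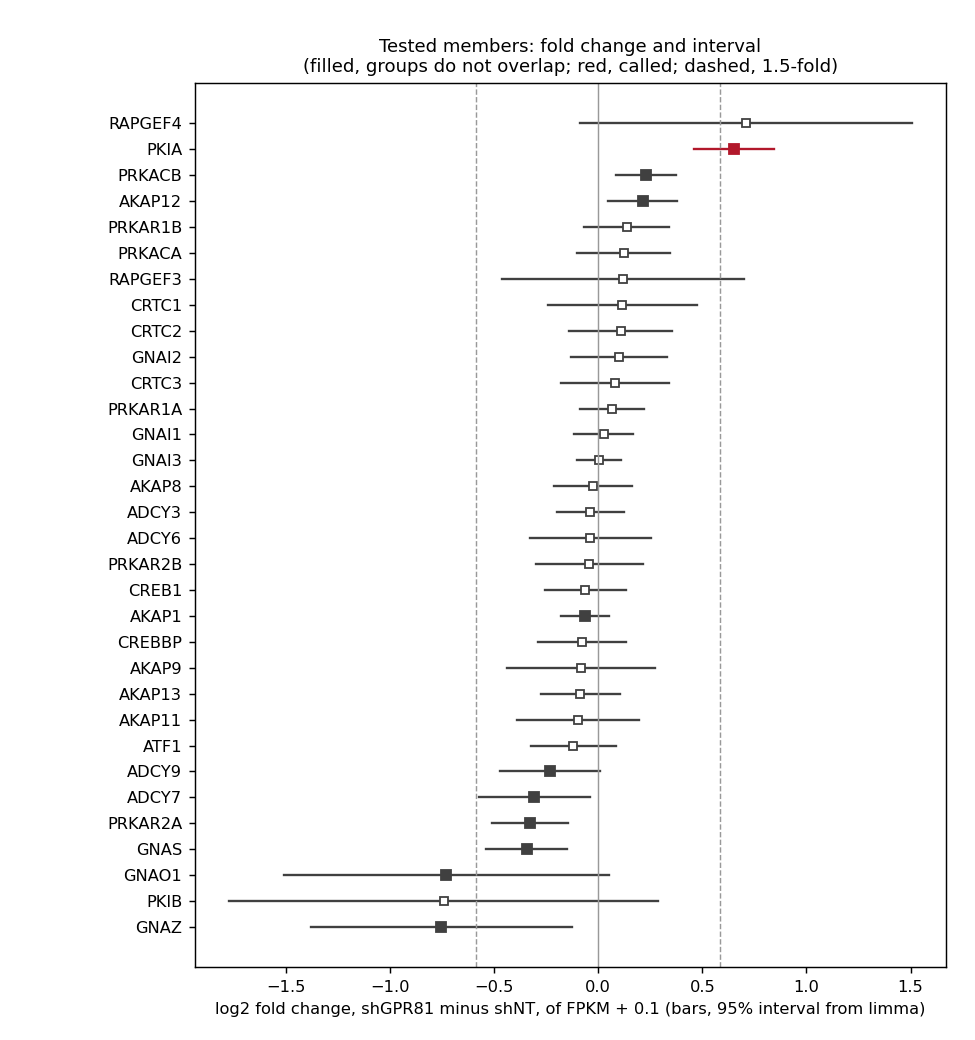
Log2 fold change of the 32 tested members (x, shGPR81 minus shNT, on FPKM + 0.1), with 95% intervals from limma and dashed lines at 1.5-fold. PKIA, in red at 0.65, is the called member, and filled squares mark the 10 members whose groups do not overlap.

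Of the 9 membrane cyclase genes, 4 passed the filter. ADCY3 led, at 20.2, 23.1 and 23.1 FPKM in shNT and 21.2, 22.0 and 21.3 FPKM in the libraries labelled shGPR81. It made up 67.4% ± 2.19 (SD, n = 3) of the summed cyclase FPKM in shNT and 69.7% ± 0.833 in the other group. ADCY6 (3.80 ± 0.487 FPKM in shNT), ADCY9 and ADCY7 followed at similar levels, and their order changed between libraries. ADCY1, ADCY2, ADCY4 and the soluble cyclase ADCY10 were listed at 0 in all libraries. ADCY5 had 1, 2 and 1 reads in the shNT libraries and 0, 0 and 3 in the other group, and ADCY8 was above 0 in shGPR81 replicate 1 alone.

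The groups of ADCY7 and ADCY9 did not overlap. ADCY7, a cyclase that G protein beta-gamma subunits enhance, was at 3.38, 3.26 and 3.25 FPKM in shNT and at 3.02, 2.58 and 2.37 FPKM in the libraries labelled shGPR81. The difference was -0.31 on the log2 scale (SE 0.11, adjusted p = 0.192, limma). ADCY9 was at 3.29, 3.86 and 3.51 FPKM in shNT and at 2.84, 3.01 and 3.18 FPKM in the other group, a difference of -0.23 on the log2 scale (SE 0.10, adjusted p = 0.273, limma). It rested on 1116 reads in shNT and 994 in the other group, or 0.846 of the shNT level once depth is accounted for (exact 95% limits 0.776 and 0.922 by the Clopper-Pearson method, for counting error only). All libraries labelled shGPR81 were lower for both genes, by amounts that did not pass the test. ADCY3 and ADCY6 overlapped, with log2 fold changes of -0.04 each and intervals of -0.20 to 0.12 and -0.33 to 0.25. The summed cyclase FPKM was 32.8 ± 1.78 in shNT and 30.9 ± 0.665 in the libraries labelled shGPR81, and these ranges overlapped too.

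The Gi subunits, through which GPR81 signals, did not differ beyond the spread between libraries. GNAI2 was the highest of them, at 119, 144 and 152 FPKM in shNT and 140, 143 and 161 FPKM in the libraries labelled shGPR81. GNAI3 was at 57.9, 56.8 and 56.8 FPKM and at 55.8, 58.7 and 57.6 FPKM. GNAI1 was at 9.90, 9.85 and 10.2 FPKM and at 10.4, 10.2 and 9.96 FPKM. Their order, GNAI2, GNAI3, GNAI1, was the same in every library, with no overlap between genes. Log2 fold changes were 0.10 for GNAI2 (interval -0.13 to 0.33), 0.01 for GNAI3 (-0.10 to 0.11) and 0.03 for GNAI1 (-0.11 to 0.17). A change of GNAI3 by more than 0.11 on the log2 scale in either direction lay outside its interval.

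The other members of the inhibitory family were near the detection limit. GNAZ, whose product also inhibits cyclases, was at 0.266, 0.354 and 0.338 FPKM in shNT and at 0.180, 0.0914 and 0.183 FPKM in the libraries labelled shGPR81. These values stand for 11, 15 and 14 reads and for 8, 4 and 8 reads, or 0.475 of the shNT level once depth is accounted for (exact 95% limits 0.263 and 0.832 by the Clopper-Pearson method, for counting error only). GNAO1, best known from neurons, was at 0.209, 0.219 and 0.133 FPKM and at 0.0226, 0.0913 and 0.114 FPKM. Every shNT library was above every library labelled shGPR81 for both genes. Neither passed (adjusted p = 0.178 for GNAZ and 0.287 for GNAO1, limma), and the log2 fold changes, -0.75 and -0.73, depended on the pseudocount, with a range of -1.08 to -0.20 and -1.37 to -0.14 over the alternative settings.

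GNAS, which encodes the stimulatory subunit, was the most abundant member. It was at 633, 724 and 768 FPKM in shNT and at 534, 542 and 595 FPKM in the libraries labelled shGPR81. The groups did not overlap, and the mean was 21.4% lower, a log2 fold change of -0.34 (SE 0.08) that did not pass (adjusted p = 0.0631, limma). Relative to the summed FPKM of GNAI1, GNAI2 and GNAI3, GNAS stood at 3.39, 3.44 and 3.50 in shNT and at 2.59, 2.56 and 2.60 in the libraries labelled shGPR81. The spread of this ratio within a group was small, 0.0572 and 0.0252 (SD, n = 3), beside the distance between the groups. Gene models overlap at this locus, including antisense ones, and the sources do not say whether reads were counted by strand.

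GNAS lies on chromosome 20 (57414773 to 57486247, plus strand, GRCh37), whose genes were lower as a whole. Of the 267 chromosome 20 genes that averaged 5 FPKM or more, 257 had a negative log2 fold change. Their median was -0.40, and the medians of other chromosomes lay between -0.03 and 0.10. GNAS, at -0.34, was less lowered than 174 of these 267 genes. The 18 tested neighbours within 2 Mb had a median of -0.36. With each chromosome centred in each library, the log2 fold change of GNAS was -0.03 (adjusted p = 0.87, limma). What this has to do with the value of GNAS was not tested further. PKIG, a homolog of PKIA, and ARFGEF2, whose product can anchor PKA, lie on the same chromosome, with log2 fold changes of -0.30 and -0.34.

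**Figure D3:**
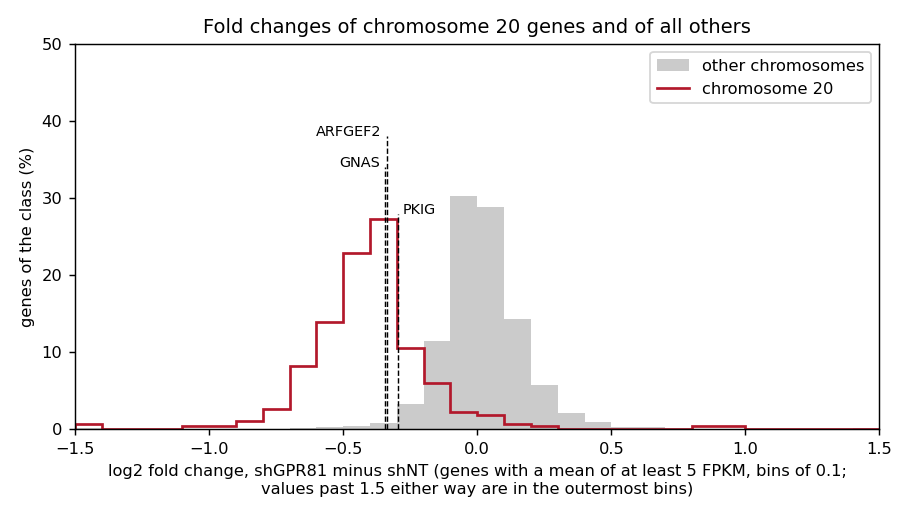
Percentage of genes (y) by log2 fold change (x) for chromosome 20 in red and all other chromosomes in grey, for genes that averaged 5 FPKM or more. Dashed lines at -0.34 (GNAS), -0.34 (ARFGEF2) and -0.30 (PKIG) fall in the main part of the chromosome 20 genes.

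PKA catalytic RNA was mostly PRKACA, at 31.2, 38.1 and 39.7 FPKM in shNT and 36.8, 40.7 and 40.7 FPKM in the libraries labelled shGPR81. PRKACB, the second catalytic gene, was at 9.94, 9.43 and 9.76 FPKM in shNT and at 11.4, 11.8 and 11.1 FPKM in the other group. All libraries labelled shGPR81 were above all shNT libraries for PRKACB. The mean was 17.5% higher, a log2 fold change of 0.23 (SE 0.06) that did not pass (adjusted p = 0.087, limma). PRKACA had a log2 fold change of 0.12 (interval -0.10 to 0.35) and overlapping groups. The homolog PRKX was at 3.37 ± 0.245 and 3.07 ± 0.177 FPKM (SD, n = 3), with groups apart (adjusted p = 0.57, limma).

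The regulatory subunits ranged from 5.66 FPKM for PRKAR2B to 94.2 FPKM for PRKAR1A (means over the 6 libraries). PRKAR1A, the main type I subunit, was at 100.1, 91.5 and 84.9 FPKM in shNT and at 94.2, 98.8 and 95.7 FPKM in the libraries labelled shGPR81. PRKAR2A, the main type II subunit, was at 16.1, 17.7 and 16.8 FPKM in shNT and at 12.2, 14.0 and 14.2 FPKM in the other group. Groups overlapped for PRKAR1A and were apart for PRKAR2A, whose mean was 20.3% lower. PRKAR2A values stand for 483, 545 and 505 reads and for 392, 444 and 449 reads, or 0.796 of the shNT level once depth is accounted for (exact 95% limits 0.739 and 0.858 by the Clopper-Pearson method, for counting error only). Its log2 fold change of -0.33 (SE 0.08) did not pass (adjusted p = 0.0605, limma). Unlike GNAS it lies on chromosome 3 (48782030 to 48885307, minus strand, GRCh37), where 82 tested neighbours within 2 Mb had a median of -0.03. PRKAR1B (type I, 10.5 ± 0.929 and 11.6 ± 0.773 FPKM) and PRKAR2B (type II, 5.76 ± 0.765 and 5.56 ± 0.226 FPKM) overlapped between the groups.

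Type II subunits, PRKAR2A and PRKAR2B together, held 17.1%, 18.3% and 19.0% of the regulatory FPKM in shNT and 14.6%, 15.1% and 15.3% in the libraries labelled shGPR81. The shares did not overlap, and neither did that of PRKAR2A alone, 13.5% ± 1.19 and 10.6% ± 0.627 (SD, n = 3). Regulatory FPKM stood at 2.75 ± 0.423 times the catalytic FPKM in shNT and at 2.50 ± 0.0551 times in the other group, and these overlapped. In shNT this ratio was highest in replicate 1, at 3.22, where PRKACA was lowest. These sums have no test, and FPKM compares RNA per length, not protein.

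**Figure D4:**
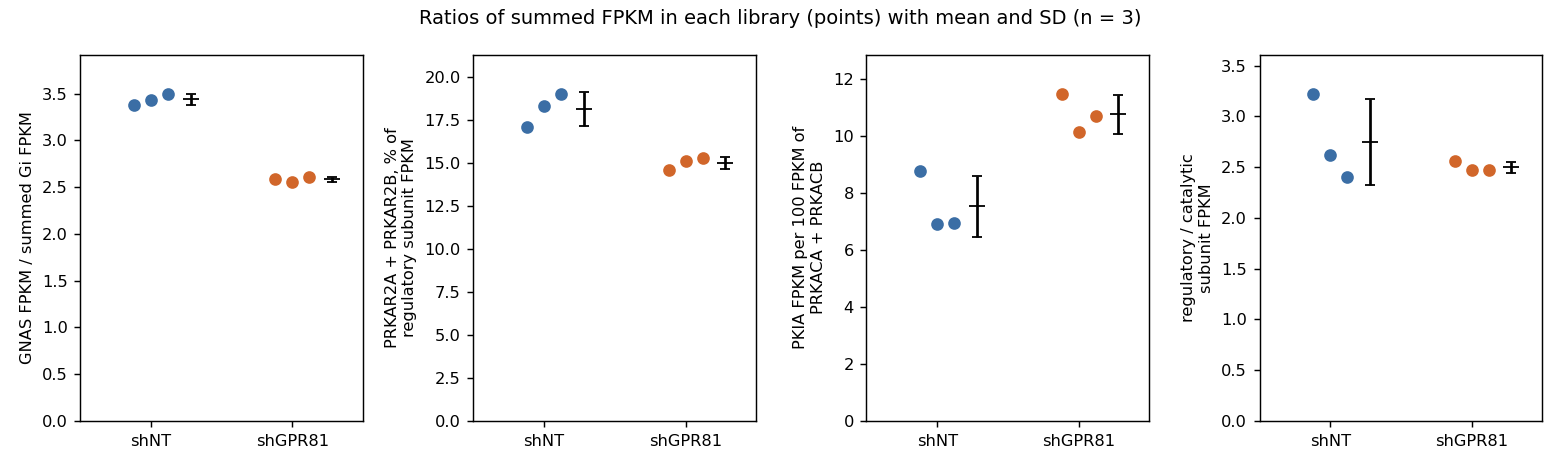
Ratios of summed FPKM (y, from 0) for shNT in blue and shGPR81 in orange, 1 point per library, with the mean and SD (n = 3) in black. GNAS over Gi (3.44 against 2.58), the type II share (18.1% against 15.0%) and PKIA per 100 FPKM of catalytic subunits (7.53 against 10.8) separate the groups, and the ratio of regulatory to catalytic subunits does not.

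CREB1 and ATF1 bind the cAMP response element TGACGTCA and its shorter form TGACG, so the start regions of the members were searched for both on both strands. RefSeq stretches (GRCh38.p14) around a start site, most of them upstream sequence, were found for 32 of the 38 members, 73 stretches in all. TGACGTCA was in 3 of the 73 (4.11%), from PRKAR1A and GNAO1, beside 1.85% of all 35116 stretches. TGACG, which is also part of the longer word, was in 29 (39.7%), from 18 members, beside 24.6% of all. PKIA, ADCY7, ADCY9 and AKAP12 were not among the 18, and whether a stretch was found for them is not given here. These shares are per stretch, with no share per gene over all genes. Several stretches of a gene can overlap and share a site. The windows of 60 bases below are given for the members with the full word and for PRKAR2A and PRKACB, the PKA subunits whose groups did not overlap, with the matched letters in capitals (CGTCA is TGACG on the other strand).
PRKAR1A (chr17:68512355-68512414, plus strand): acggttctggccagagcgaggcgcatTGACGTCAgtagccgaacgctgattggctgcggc
GNAO1 (chr16:56191315-56191374, plus strand): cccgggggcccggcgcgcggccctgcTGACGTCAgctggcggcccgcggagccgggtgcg
PRKAR2A (chr3:48847874-48847933, minus strand): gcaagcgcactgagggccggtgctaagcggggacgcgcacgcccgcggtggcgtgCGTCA
PRKACB (chr1:84077922-84077981, plus strand): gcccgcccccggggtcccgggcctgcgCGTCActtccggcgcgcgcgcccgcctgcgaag
The full word stands before both PRKAR1A, among the highest members and overlapping between the groups, and GNAO1, among the lowest. A match describes these letters only.

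The CREB branch itself showed no difference that passed. ATF1, the highest of the members ATF1, CREB1 and CREBBP, was at 15.2, 14.0 and 13.0 FPKM in shNT and at 13.9, 11.8 and 13.1 FPKM in the libraries labelled shGPR81. CREB1 was at 7.53 ± 0.681 and 7.19 ± 0.0915 FPKM (SD, n = 3), a log2 fold change of -0.06 (interval -0.26 to 0.13). CREBBP, the acetyltransferase that CREB1 recruits, was at 6.11 ± 0.144 and 5.80 ± 0.549 FPKM. CRTC2, the main CRTC coactivator in these cells, was at 10.6, 13.7 and 13.5 FPKM in shNT and at 13.4, 14.1 and 13.0 FPKM in the other group. It made up 63.8% ± 2.31 and 63.9% ± 3.54 of the CRTC FPKM. Groups overlapped for all 6 genes of this branch, and so did CREM, a repressor and activator of the same family, at 19.8 ± 1.47 and 21.4 ± 1.08 FPKM. EP300, the homolog of CREBBP, was apart, at 10.3, 9.96 and 9.94 FPKM in shNT and 9.04, 9.46 and 9.29 FPKM in the libraries labelled shGPR81 (adjusted p = 0.357, limma).

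EPAC RNA was scarce. RAPGEF3 (EPAC1) was at 0.253, 0.204 and 0.157 FPKM in shNT and at 0.259, 0.222 and 0.205 FPKM in the libraries labelled shGPR81. RAPGEF4 (EPAC2) was at 0.124, 0.0605 and 0.0413 FPKM and at 0.270, 0.176 and 0.117 FPKM. The groups overlapped for both, and the log2 fold change of RAPGEF4, 0.71, had an interval of -0.09 to 1.51 (adjusted p = 0.315, limma). RAPGEF4 was above RAPGEF3 in shGPR81 replicate 1 and below it in the other libraries.

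All 6 AKAP genes were expressed, from 3.55 FPKM for AKAP9 to 21.6 FPKM for AKAP1 (means over the 6 libraries). AKAP1, which holds PKA at mitochondria, was at 22.1, 22.4 and 21.9 FPKM in shNT and at 21.0, 21.1 and 21.4 FPKM in the libraries labelled shGPR81. The groups did not overlap, and the mean was 4.35% lower in the libraries labelled shGPR81, a difference of -0.06 on the log2 scale (SE 0.05, adjusted p = 0.552, limma). AKAP12, a scaffold also known as gravin, was at 9.55, 8.51 and 8.66 FPKM in shNT and at 10.4, 10.1 and 10.5 FPKM in the other group. It was higher in 3 of 3 libraries and by 16.1% of the mean, which did not pass (log2 fold change 0.21, SE 0.07, adjusted p = 0.149, limma). AKAP8, AKAP9, AKAP11 and AKAP13 overlapped between the groups, with log2 fold changes of -0.10 to -0.03. AKAP9 and AKAP11 spread most within shNT, from 2.98 to 4.46 and from 7.41 to 10.4 FPKM.

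PKIA is a small protein that binds free catalytic subunits of PKA, blocks them and helps to carry them out of the nucleus. It was at 3.61, 3.28 and 3.43 FPKM in shNT and at 5.53, 5.30 and 5.53 FPKM in the libraries labelled shGPR81. All libraries labelled shGPR81 were above all shNT libraries, and the distance was far larger than the spread within a group (3.44 ± 0.168 and 5.45 ± 0.130 FPKM, SD, n = 3). PKIA rose by 58.7% of the mean, with a log2 fold change of 0.65 (SE 0.08, 95% interval 0.46 to 0.84, adjusted p = 0.00545, limma with Benjamini-Hochberg adjustment). Permuting the libraries exactly (two-sided) gave p = 0.1, the smallest that 3 against 3 libraries allow. In bulk RNA, more cells with the transcript and more transcript per cell cannot be told apart. The fold is close to the threshold of 1.5: with a pseudocount of 1 the log2 fold change was 0.54 and the gene was no longer called, and treat in limma, whose null is a 1.5-fold change, gave an adjusted p of 1.

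Per 100 FPKM of PRKACA and PRKACB there were 8.77, 6.89 and 6.93 FPKM of PKIA in shNT and 11.5, 10.1 and 10.7 FPKM in the libraries labelled shGPR81. PKIA was not the main PKI gene. PKIG, taken from the wider list of pathway genes, was at 29.5, 33.6 and 38.6 FPKM in shNT and at 25.8, 29.5 and 27.1 FPKM in the other group (log2 fold change -0.30, SE 0.10, adjusted p = 0.163, limma). PKIA made up 9.28% ± 1.44 (SD, n = 3) of the summed PKI FPKM in shNT and 16.6% ± 1.27 in the libraries labelled shGPR81, while the sum itself, 37.5 ± 4.54 and 33.0 ± 1.82 FPKM, overlapped. PKIB was near the limit, at 0.0521, 0.158 and 0.156 FPKM in shNT and at 0, 0.115 and 0 FPKM in the other group.

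PKIA lies on chromosome 8 (79428575 to 79517502, plus strand, GRCh37), and a neighbour was called too. IL7, which encodes an interleukin and lies 70475 bases from PKIA, was at 1.09, 0.901 and 0.814 FPKM in shNT and at 2.17, 2.29 and 2.31 FPKM in the libraries labelled shGPR81. It rose, with a difference of 1.20 on the log2 scale (SE 0.14, adjusted p = 0.0039, limma), and was the 1 called gene among the 9 tested neighbours within 2 Mb. ZC2HC1A, which overlaps IL7 on the other strand so that reads of the pair may not be told apart, was at 2.68, 2.66 and 2.33 FPKM in shNT and at 3.56, 3.19 and 3.01 FPKM in the other group. HEY1, a Notch target, was at 1.60, 1.83 and 1.39 FPKM and at 2.40, 2.20 and 2.43 FPKM. Both had groups apart and did not pass (adjusted p = 0.149 and 0.0725, limma). Farther out the log2 fold changes were -0.05 for ZFHX4, 0.08 for PEX2, 0.06 for MRPS28, -0.07 for TPD52 and -0.12 for ZBTB10, and the median of the 287 chromosome 8 genes that averaged 5 FPKM or more was 0.01. The neighbours were named after their values were seen.

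**Figure D5:**
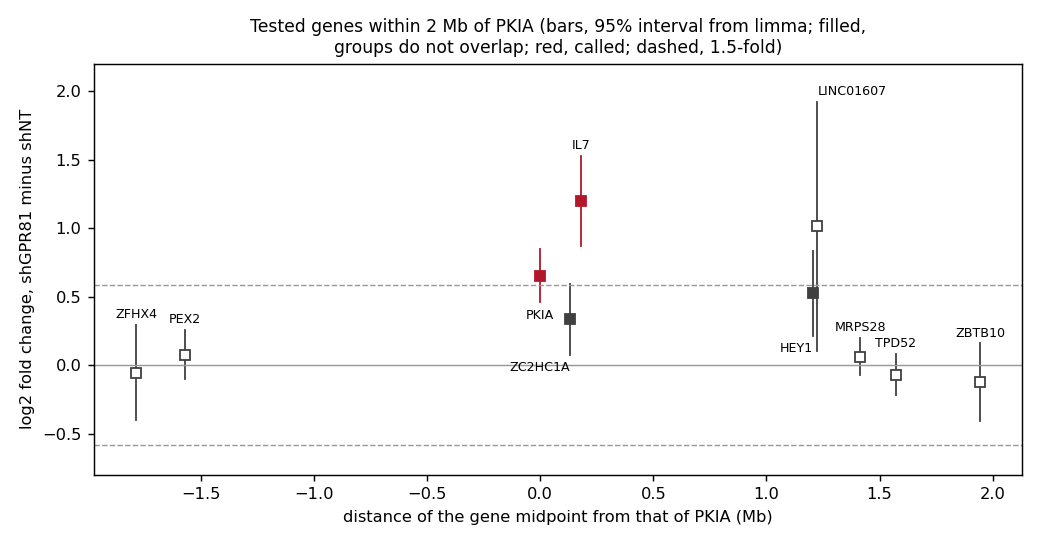
Log2 fold change with 95% interval (y) of the tested genes within 2 Mb of PKIA by distance in Mb (x), with called genes in red and dashed lines at 1.5-fold. PKIA (0.65), IL7 (1.20), ZC2HC1A (0.34), HEY1 (0.53) and LINC01607 (1.01, groups overlapping) lie above 0 and genes at either side of them near it.

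A wider list of 57 pathway genes, from receptors and G protein beta and gamma subunits to further anchors and kinases, held 44 tested genes. None of them was called (limma), beside 2.54% of all tested genes called in either direction. At an unadjusted p under 0.05 (limma) 3 were lower and 4 higher, where 19.5% of all tested genes lay in either direction. The groups did not overlap in 16 of the 44 (36.4%), beside 25.6% of all tested genes. The median log2 fold change was 0.01.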

How the data were processed

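Per the study's methods, RNA of 6 libraries of MDA-MB-231 cells was prepared with a stranded mRNA kit and read as single ends on an Illumina HiSeq instrument. Per the labels, the authors used TopHat2 2.0.13, Bowtie2 2.2.3, SAMtools 0.1.19 and Cuffnorm 2.2.1. The paper gives the human genome hg19 and the labels mm10. The symbols are human, so GRCh37 was used for gene positions (GENCODE release 44 mapped to it, all 38 members matched), while start region sequences are RefSeq on GRCh38.p14. The deposited values are FPKM (fragments per kilobase of transcript, scaled to depth), 1 column per library. MIR6723 held 32.8%, 32.9% and 36.2% of the column sum in shNT and 31.4%, 32.0% and 28.1% in the libraries labelled shGPR81. These shares did not overlap, and their part in the FPKM of other genes was not tested. The study tested read counts, and here a log-scale model was used because FPKM are not counts. The annotation, the scaling option and the strand setting are not given in the sources used here.

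The groups were compared on log2(FPKM + 0.1) in limma 3.58.1 (lmFit, eBayes with trend; R 4.3.3). Genes that reached 0.1 FPKM in 3 or more libraries entered, 14349 in all, and p-values were adjusted over all of them by Benjamini-Hochberg. Called genes had a change of more than 1.5-fold with an adjusted p below 0.05. Fold changes are on the log2(FPKM + 0.1) scale, which understates those of low genes. The fit was run on simulated data with changes larger than any estimated for a member in the main fit. That run did not check the fit at the sizes reported here. Read numbers were recovered as the lowest integers in the proportions of the FPKM values, at a relative tolerance of 5e-05, found for 5572 of 15931 genes. Intervals from them pool the libraries of a group and cover counting error only. They were computed for HCAR1 and for ADCY9, GNAZ and PRKAR2A, members whose groups were apart. Reads were also recovered for ADCY5, PRKAR2B, ATF1 and CRTC2, whose groups overlapped, and no interval was computed for these. The read ratios restate the FPKM ratios and are no separate evidence. Members and lists were chosen with earlier results of these data known. Values in every library are given for members called or past the adjusted p, members with groups apart and a log2 fold change of at least 0.2 either way, the highest member of each role, and GNAS and the Gi genes. Other members, and genes outside the list where a result turns on them, were named after their values were seen. As alternatives, the replicate number was added as a block, each library was dropped, and other settings were used for filters, pseudocounts, centring, quantile normalization, treat and eBayes without trend. A result of the wider pathway list is not reported here.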

Additional observations from a re-analysis of the deposited data

How the results depend on the processing

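PKIA kept its direction in all 16 alternatives, with log2 fold changes of 0.54 to 0.69, and was called in 14. With a pseudocount of 1 and with treat, 0 members were called higher. The number of members with an adjusted p under 0.05 was 3 under a replicate block, 3 with quantile normalization, 0 with treat, and 1 to 3 with each library left out, 3 without shNT replicate 1. In each case of 3, GNAS and PRKAR2A joined PKIA, at adjusted p of 0.0266 and 0.0496 under the block, below 1.5-fold. Same-numbered libraries deviated together at correlations of 0.12, 0.0223 and 0.00577. Differently numbered libraries were not compared, so these values cannot decide whether the numbers pair the libraries. The block changed no call of a member, although it brought the adjusted p of GNAS and PRKAR2A under 0.05 (limma).

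Over all genes, 142 were called lower and 75 higher with a pseudocount of 1, and 46 and 9 with treat. With each library left out, 110 to 238 were lower, 110 without shNT replicate 2, 146 without shNT replicate 3, and 141 and 143 without shGPR81 replicates 1 and 2. Higher calls numbered 68 to 156, 83 without shNT replicate 2, and 74, 68 and 84 without shGPR81 replicates 1, 2 and 3. Small fold changes changed sign: with each chromosome centred, GNAI1 to -0.027 and GNAI3 to -0.012, and with libraries left out ADCY6 (-0.14 to 0.031), GNAI2 (-0.0042 to 0.17), GNAI3 (-0.011 to 0.025), PRKAR2B (-0.14 to 0.049), AKAP8 (-0.077 to 0.028), AKAP9 (-0.22 to 0.063), AKAP11 (-0.21 to 0.032), CREB1 (-0.12 to 0.0074), CRTC1 (-0.0035 to 0.21) and CRTC2 (-0.013 to 0.17). The cause was not tested. Median centring, the filters, a pseudocount of 0.01 and eBayes without trend changed no member's call. Genes outside the 38 members were not run under the alternatives one by one. GNAZ, the 1 tested member under 1 FPKM whose reads were recovered, rested on 4 to 15 reads per library.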
